A study of Mus musculus with 8 samples.

Results

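The 7 genes H2-Aa, H2-Ab1, H2-Eb1, H2-DMa, H2-DMb1, Cd74 and Ciita carry the core of MHC class II antigen presentation in the mouse. They were taken by symbol, and each was found in 1 row of the 32285 genes listed for every sample, so that 7 of 32285 genes are described. Hearts came from wild-type male C57BL/6J mice operated on at 8 weeks of age. The sham group had the operation without the ligature. The other mice underwent transverse aortic constriction (TAC), in which a suture around the aortic arch puts the left ventricle under pressure overload, and were examined after 2, 4 or 6 weeks (TAC-2w, TAC-4w and TAC-6w). No harvest time was labelled for sham. Each group had 1 heart section for spatial transcriptomics (10x Visium) and 1 single-cell library (10x 3′), so no difference between groups has a replicate check and none could be tested. By the labels, the section of TAC-2w shared its batch with that of sham, and so did the library of TAC-6w with that of sham. In every other comparison with sham, batch and condition cannot be told apart.

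MHC class II molecules are pairs of an α and a β chain that show peptides from engulfed protein to CD4+ T cells. The invariant chain Cd74 holds the new pair together and blocks its groove until proteases, among them cathepsin S (Ctss), cut it away. H2-DM, made of H2-DMa and a β chain from H2-DMb1 or its neighbour H2-DMb2, then exchanges the remaining fragment for peptide, and H2-DO (H2-Oa and H2-Ob) restrains H2-DM, mainly in B cells. Ciita is the transactivator on which transcription of all these genes depends. It binds no DNA itself and acts through factors that sit on the X and Y boxes of the promoters. B cells, dendritic cells and macrophages are the usual carriers of these molecules. C57BL/6 mice transcribe H2-Eb1 but lack a working H2-Ea gene, so that H2-Eb1 forms no surface I-E molecule in this strain.

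The promoters are shown because the members share a regulator and their levels are compared below. Starts were taken from RefSeq (GRCm38.p6) for 4 of the 7 members, H2-Aa, H2-Eb1, H2-DMa and H2-DMb1. The promoters of H2-Ab1, Cd74 and Ciita were not examined. The Y box was searched as TGATTGG and the X box core as AACNGATG, on both strands, within the 150 bases before each start; the letters of the motifs do not overlap each other. In the lines below, written 5′ to 3′ on the strand of the gene, capitals mark these motifs. H2-DMb2 is included as the near-identical neighbour of H2-DMb1.
H2-Aa, chr17:34287824-34287973, minus strand: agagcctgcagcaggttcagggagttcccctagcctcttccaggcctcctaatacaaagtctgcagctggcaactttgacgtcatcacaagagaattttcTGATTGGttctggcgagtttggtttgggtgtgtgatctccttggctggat
H2-Eb1, chr17:34305717-34305866, plus strand: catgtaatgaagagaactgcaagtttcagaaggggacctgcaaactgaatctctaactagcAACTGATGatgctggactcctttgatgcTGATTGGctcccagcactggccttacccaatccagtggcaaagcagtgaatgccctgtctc
H2-DMb1, chr17:34153041-34153190, plus strand: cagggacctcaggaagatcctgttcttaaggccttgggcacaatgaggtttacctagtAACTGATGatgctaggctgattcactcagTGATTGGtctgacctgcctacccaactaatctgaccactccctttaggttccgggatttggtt
H2-DMb2, chr17:34145099-34145248, plus strand: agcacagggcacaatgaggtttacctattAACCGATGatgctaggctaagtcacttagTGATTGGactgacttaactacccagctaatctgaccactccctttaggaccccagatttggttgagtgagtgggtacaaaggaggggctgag
In H2-Eb1 the X core began 28 bases upstream of the Y box, and in both H2-DMb1 and H2-DMb2 it began 29 bases upstream. The H2-Aa window held a Y box, 50 bases before the start, without this form of the X core. Both listed starts of H2-DMa, counted among the 4 members examined, lacked these letters in 150 bases. Among the 8 class II genes examined (these 4 members, H2-DMb2 and the other paralogs), 7 held the Y box and 4 the X core. Of all 32851 promoter windows of this length, 5.71% held the Y box, 1.14% the X core and 0.0791% both. The 5 chain and DM genes lie within chromosome 17 (GRCm38.p6), from H2-DMa (34119693 to 34139101) and H2-DMb1 (34153191 to 34160229) to H2-Ab1 (34263227 to 34269418), H2-Aa (34282744 to 34287823) and H2-Eb1 (34305867 to 34316674). Ciita lies on chromosome 16 (10480014 to 10531064).

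The libraries held 28793316 to 86671674 unique molecular identifiers (UMIs), and 5399 to 7965 cells per library were kept. Their median depth was 9131, 10717, 4449 and 4743 UMIs per cell. Here and throughout, 4 values in a row are in the order of sham and then 2, 4 and 6 weeks of TAC, and 3 values in a row are those of the TAC times alone. Sections held 25996378 to 48754396 UMIs over 1228 to 2193 spots. Any pair of libraries shared 9 to 30 cell barcodes. Levels are given as counts per 1000000 UMIs (CPM) of the summed cells or spots, and the class II sum adds the 7 genes. A called gene is one at least 1.5 times above or below sham, with at least 50 UMIs in 1 of the 2 samples. Intervals of 95% (exact Poisson for levels, exact conditional binomial for ratios, Clopper-Pearson for shares) cover counting error only, not the spread between animals. Cells were clustered without the class II genes, and clusters carry a name with "-like" from marker genes. Cd79a stood at 2653 CPM in B cell-like cells and at 4.07 CPM in macrophage-like cells, C1qa at 6650 CPM in macrophage-like and 12.0 CPM in B cell-like cells, and Pecam1 at 1387 CPM in endothelial cell-like cells. Cd209a (357 CPM), Xcr1 (63.8 CPM), Flt3 (56.0 CPM) and Clec9a (55.7 CPM) marked the dendritic cell-like cells, in which C1qa was also present at 792 CPM. The rest of their marker list was higher elsewhere. Ifi205 was at 166 CPM in these cells and 357 CPM in fibroblast-like cells. Zbtb46 was at 19.5 CPM in these cells and 42.75 CPM in endothelial cell-like cells. When each of the 324 dendritic cell-like cells was named by its own marker score, 128 were named dendritic and 71 macrophage. The contrast of these 2 types may therefore mix some of their cells.

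The order of the cell types was the same in each library apart from TAC-4w, where dendritic cell-like and macrophage-like cells were nearly level. The class II sum of dendritic cell-like cells was 46335 CPM in sham, 48431 CPM in TAC-2w, 43986 CPM in TAC-4w and 58286 CPM in TAC-6w, from 109, 104, 45 and 66 cells. In macrophage-like cells it was 30573, 22777, 44603 and 33270 CPM, from 1611, 1583, 184 and 910 cells. In B cell-like cells it was 19664, 20553, 23927 and 23287 CPM, from 232, 155, 2429 and 915 cells. Macrophage-like cells thus ranged from near the B cell-like level at TAC-2w to the dendritic cell-like level at TAC-4w. Endothelial cell-like cells stood far lower, at 467, 328, 571 and 488 CPM (494, 571, 478 and 200 cells), which was near the 528, 337, 650 and 591 CPM of T cell-like cells. Fibroblast-like cells had 121, 85.6, 322 and 95.8 CPM.

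**Figure D1:**
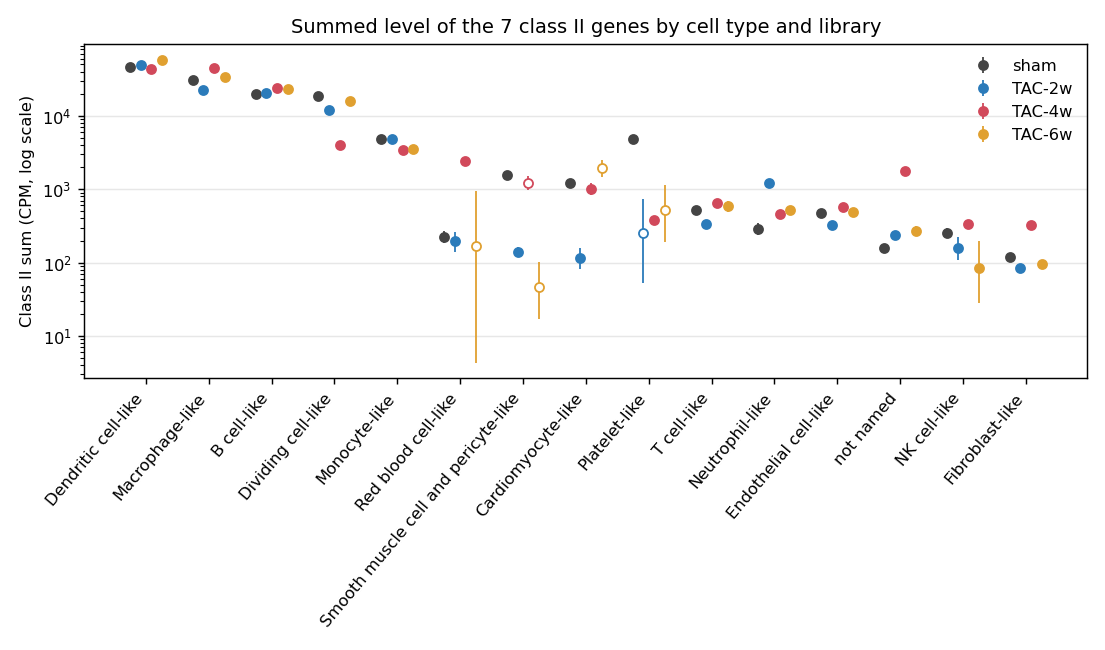
Summed level of the 7 genes (class II sum, CPM, log axis) by cell type and library, with bars for the 95% Poisson interval and open symbols for groups under 20 cells. The class II sum lies between 19664 and 58286 CPM in the B cell-like, dendritic cell-like and macrophage-like groups and between 328 and 571 CPM in the endothelial cell-like groups.

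The α and β chains of I-A, H2-Aa and H2-Ab1, were not in the same proportion in the 3 presenting types. H2-Aa stood at 3700, 4050, 4228 and 4065 CPM in B cell-like cells, at 8317, 8840, 7503 and 9725 CPM in dendritic cell-like cells and at 5586, 4082, 7577 and 5545 CPM in macrophage-like cells. H2-Ab1 stood at 2590, 2844, 2887 and 2897 CPM in B cell-like cells, at 8842, 8803, 7992 and 10161 CPM in dendritic cell-like cells and at 5175, 3658, 7384 and 5245 CPM in macrophage-like cells. The ratio of H2-Aa to H2-Ab1 UMIs was 1.40 to 1.46 in B cell-like cells of the 4 libraries, 0.939 to 1.004 in dendritic cell-like cells and 1.03 to 1.12 in macrophage-like cells, and these ranges did not overlap. The ratio is read between cell types only, since capture of 3′ ends can differ between genes. H2-Eb1, the unpaired β chain of this strain, was at 3158, 3041, 3184 and 3720 CPM in B cell-like cells, at 8725, 9193, 7140 and 11753 CPM in dendritic cell-like cells and at 6158, 4216, 8780 and 7849 CPM in macrophage-like cells. Transcripts of this chain were thus plentiful in every presenting type.

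Cd74, which encodes the invariant chain, gave the most UMIs of the 7 members in each presenting type, a count that depends on capture as well as on RNA. It stood at 9644, 10020, 12971 and 12020 CPM in B cell-like cells, at 18595, 19810, 19250 and 24505 CPM in dendritic cell-like cells and at 13009, 10325, 19783 and 13824 CPM in macrophage-like cells. Its share of the class II UMIs was 48.8% to 54.2% in B cell-like cells, 40.1% to 43.8% in dendritic cell-like cells and 41.6% to 45.3% in macrophage-like cells. The share in B cell-like cells was thus above that of dendritic cell-like and macrophage-like cells in every library.

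The peptide-loading genes differed between the presenting types. H2-DMa, the DM α chain, was at 384, 421, 434 and 412 CPM in B cell-like cells and at 379, 287, 513 and 475 CPM in macrophage-like cells, with 1068, 1043, 1146 and 1147 CPM in dendritic cell-like cells. H2-DMb1, a DM β chain, was at only 61.8, 83.5, 94.9 and 81.9 CPM in B cell-like cells, against 231, 183, 472 and 294 CPM in macrophage-like and 691, 644, 860 and 897 CPM in dendritic cell-like cells. B cell-like cells instead held most of the paralog H2-DMb2, at 329 CPM in sham, where dendritic cell-like cells had 95.1 CPM and macrophage-like cells 3.36 CPM. The paralogs are near-identical, so assignment of single reads to one or the other is uncertain, and B cell-like cells were lowest of the 3 types for H2-DMb1 and highest for H2-DMb2. The DO chains followed H2-DMb2. In sham H2-Oa was at 216, 46.0 and 2.04 CPM and H2-Ob at 442, 57.7 and 6.38 CPM in B cell-like, dendritic cell-like and macrophage-like cells, and the β chain paralog H2-Eb2 at 84.6, 2.34 and 0.736 CPM.

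Ciita did not follow the order of the genes that depend on it. It was at 127, 94.0, 128 and 90.5 CPM in B cell-like cells, while dendritic cell-like cells had 97.5, 98.7, 96.0 and 96.7 CPM and macrophage-like cells 36.9, 25.9, 94.3 and 38.1 CPM. B cell-like cells, the lowest of the 3 in class II, were thus highest in Ciita in sham and TAC-4w and close to dendritic cell-like cells in TAC-2w and TAC-6w. In endothelial cell-like cells there were 0, 6, 27 and 1 Ciita UMIs, and the 0 of sham allows up to 0.893 CPM. At TAC-4w Ciita stood at 67.1 CPM in 13 of these cells, a sub-cluster led by the B cell markers Cd79a and Igkc. It was at 5.17 CPM or less in the other endothelial cell-like sub-clusters of that library. Fibroblast-like cells had 0.257, 0.256, 1.07 and 0.271 CPM. Among macrophage-like cells of at least 2000 UMIs, the other 6 members stood at 45091 CPM in the 311 sham cells with a Ciita UMI and at 26827 CPM in the 1252 without, and the same order held in TAC-2w (40010 against 19245 CPM), TAC-4w (58030 against 34237 CPM) and TAC-6w (49529 against 31135 CPM). In B cell-like cells the values were close, at 21061 against 19063 CPM in sham and 20932 against 20614 CPM in TAC-2w, and in TAC-4w and TAC-6w at 24776 against 23251 and 23464 against 22873 CPM. Dendritic cell-like cells had no one order, with 49166 against 41765, 48604 against 47510, 50241 against 29831 and 55555 against 62375 CPM.

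The cells of a type were uniform for class II in B cell-like cells and spread widely in macrophage-like cells. The quartiles of the class II sum over single cells of sham were 15508 and 23646 CPM in B cell-like cells, 32506 and 55337 CPM in dendritic cell-like cells and 10662 and 49870 CPM in macrophage-like cells. After the variance of counting was taken off, the coefficient of variation between cells was 0.269 to 0.329 in B cell-like, 0.237 to 0.628 in dendritic cell-like and 0.716 to 0.943 in macrophage-like cells over the 4 libraries. Within macrophage-like cells H2-Aa and H2-Ab1 varied together from cell to cell, with a correlation of 0.908 to 0.953 per library, as a description of cells of 1 library.

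Macrophage-like cells split into 9 sub-clusters, and the 6 larger ones fell into a lower and a higher range of class II. Over all libraries it was 16895 CPM in sub-cluster 0 (led by Retnla, Emp1 and Hspb1, 872 cells) and 16511 CPM in sub-cluster 1 (Ccl8, Cd209f and Ednrb, 746 cells). The class II sum was 37133 CPM in sub-cluster 3 (Il1b, Myl2 and Tnip3, 734 cells), 39584 CPM in sub-cluster 2 (Mcpt4, Cma1 and Tpsb2, 742 cells) and 47249 CPM in sub-cluster 4 (Spp1, Fabp5 and Gpnmb, 715 cells). Within sub-cluster 1, the marker list that stood furthest above the other macrophage-like cells was that of resident macrophages. Within sub-cluster 4 it was the list of recruited macrophages. Sub-cluster 5 (Cxcl13, Cd207 and St3gal5, 376 cells) was at 30256 CPM. The pooled order of sub-cluster 2 rests on TAC-6w, which gave 594 of its cells (40027 CPM). In sham and TAC-2w it was at 32855 and 28306 CPM, below sub-cluster 3 (39132 and 35897 CPM) and near sub-cluster 5 (30887 and 28253 CPM). Sub-cluster 2 is led by mast cell protease genes and sub-cluster 3 includes the cardiomyocyte gene Myl2 among its leading genes, so both held transcripts known from other cells. Pooled over libraries, Ciita followed the same order, from 15.0 CPM in sub-cluster 1 and 20.9 CPM in sub-cluster 0 to 67.6 CPM in sub-cluster 4. The 3 small sub-clusters, led by haemoglobin genes (50 cells), Prss34 and Mcpt8 (38 cells) and Dcn (15 cells), were at 18960, 6075 and 10551 CPM. Their leading genes are known from other cells, so the name macrophage-like may not hold for them. They are counted in all values of macrophage-like cells. In each library sub-cluster 4 lay above sub-cluster 1. It was at 49267 CPM in sham, 41416 CPM in TAC-2w, 55461 CPM in TAC-4w and 40870 CPM in TAC-6w, while sub-cluster 1 was at 19100, 13724, 25743 and 18647 CPM, with only 9 cells in TAC-4w.

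**Figure D2:**
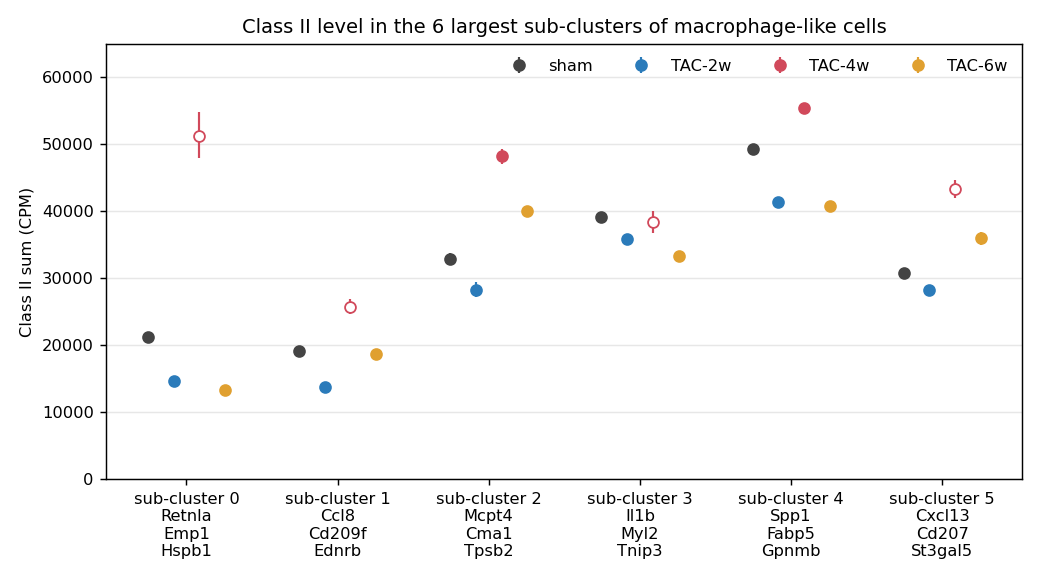
Class II sum (CPM) of the 6 largest macrophage-like sub-clusters in each library, with bars for the 95% Poisson interval and open symbols for groups under 20 cells. Of these 6, sub-clusters 0 and 1 lie lowest in each library apart from 2 cells of sub-cluster 0 in TAC-4w, and sub-cluster 4 lies between 40870 and 55461 CPM.

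At TAC-2w all 7 members were lower in macrophage-like cells than in sham. The class II sum was 0.745 times sham (95% interval 0.742 to 0.748), H2-Aa 0.731 times, H2-Ab1 0.707 times, H2-Eb1 0.685 times, H2-DMa 0.759 times, H2-DMb1 0.795 times and Cd74 0.794 times. Ciita was 0.702 times sham (0.611 to 0.806), from 264 against 451 UMIs. None of the 7 reached the 1.5-fold limit, which 1.13% of 9856 tested genes passed as lower and 1.48% as higher. The median of the members was 0.731 and that of all tested genes 1.025, and the 8 class I genes had a median of 0.867, with H2-K1, a class I heavy chain, at 0.884 and Nlrc5, the class I transactivator, at 0.747. Each of the 7 stayed below sham in every alternative run, with the sum between 0.717 and 0.824. Sub-cluster 0 made up 476 of the TAC-2w cells and 318 of the sham cells, and with the sub-clusters weighted as in sham the ratio was 0.824. Each of the 6 larger sub-clusters was itself lower at TAC-2w, for example sub-cluster 0 at 14722 against 21293 CPM and sub-cluster 3 at 35897 against 39132 CPM. The 2 libraries were of different batches.

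At TAC-4w the 184 macrophage-like cells had a class II sum 1.46 times sham (1.447 to 1.471). Cd74 (1.52 times), H2-DMb1 (2.05 times, 1.878 to 2.226) and Ciita (2.56 times, 2.092 to 3.103) were called higher, 3 of 7 members, where 12.5% of all tested genes were called higher and 12.6% lower. The I-A chains and H2-Eb1 were at 1.36, 1.43 and 1.43 times and H2-DMa at 1.36 times. Class I genes went the other way, with a median of 0.75, H2-K1 at 0.633 and B2m, the class I light chain, at 0.695 times sham. Sub-cluster 4 made up 96 of the 184 cells, against 350 of 1611 in sham, and with sub-clusters weighted as in sham the sum was 1.14 times sham. That value rests on sub-clusters 2 and 4 alone, with 37 and 96 TAC-4w cells and 72 and 350 sham cells. The other sub-clusters were left out for too few cells in at least 1 library. Among these were sub-clusters 0, 1, 3 and 5, with 2, 9, 7 and 9 cells at TAC-4w and 318, 330, 325 and 176 in sham. Also left out was the small sub-cluster led by Prss34 and Mcpt8, with Hdc, Gata2, Cpa3 and Ms4a2 also among its leading genes. Its cells may be of a type other than macrophages, which was not tested. This sub-cluster held 21 of the 184 TAC-4w cells, at 4325 CPM, and 8 sham cells, at 4667 CPM. The value of 1.46 times sham includes its cells. In all macrophage-like cells the summed monocyte list was at 41.1 CPM in sham and 289 CPM at TAC-4w (6 and 4 of 6 markers detected, Cd300e and Ace at 0), and the B cell list at 32.7 and 118 CPM (6 of 6 in both), where B cell-like cells had 6897 and 7522 CPM, while the macrophage list was at 18795 and 13285 CPM; their part in the difference was not tested. When monocyte-like cells, 220 of them at TAC-4w, were counted with the macrophages, the sum was 0.683 times sham and Cd74 0.723 times. Ciita and H2-DMb1 then stayed above sham, at 1.28 and 1.17 times.

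At TAC-6w, in the batch of the sham library, H2-Eb1 stood further above sham than H2-Aa and H2-Ab1 in the 3 presenting types. In macrophage-like cells H2-Eb1 was 1.27 times sham (1.257 to 1.292), while H2-Aa was 0.993 times (0.977 to 1.009) and H2-Ab1 1.01 times (0.997 to 1.03). In dendritic cell-like cells H2-Eb1 was 1.35 times sham (1.303 to 1.392), H2-Aa 1.17 and H2-Ab1 1.15 times, and in B cell-like cells the 3 values were 1.18, 1.10 and 1.12 times. H2-Eb1 stood above H2-Ab1 by this measure in all 3 types under each alternative, although with macrophage sub-clusters weighted as in sham it was at 0.976 times and H2-Ab1 at 0.819 times. Sub-cluster 2, shallow in UMIs, held 594 of the 910 TAC-6w macrophage-like cells. H2-DMa was 1.25, H2-DMb1 1.28, Cd74 1.06 and Ciita 1.03 times sham in macrophage-like cells, and the class II sum 1.09 times, or 0.869 times with the sub-clusters weighted as in sham. No member was called, where 4.81% of genes were called higher and 17% lower and the median of all genes was 0.891. Class I again lay lower, with 3 of 8 genes called lower and H2-K1 at 0.607 times sham.

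In dendritic cell-like cells no member was called in any comparison, against 4.32% of genes called higher and 3.86% lower at TAC-2w, 11.2% and 13.2% at TAC-4w and 5.09% and 24.5% at TAC-6w. The class II sum was 1.04, 0.949 and 1.26 times sham at the successive times, and it changed with the naming of the cells. When each cell was named by its own marker score, from 145 cells in sham and 121, 26 and 70 in the TAC libraries, the ratios were 1.71, 3.43 and 1.39 times. Of the cells so named, 227 were in the fibroblast-like clusters and 128 in the dendritic cell-like cluster. Those ratios therefore do not describe dendritic cells alone. At TAC-4w, from 45 cells, H2-Eb1 was at 0.818 and H2-DMb1 at 1.24 times, and at TAC-6w, from 66 cells, Cd74 was at 1.32 and H2-DMb1 at 1.30 times while Ciita was at 0.992 times and the median of all genes at 0.869. Of the accessory genes, H2-DMb2 (1.82 and 1.58 times) and H2-Oa (1.81 and 3.13 times) were called higher at TAC-4w and TAC-6w, H2-Oa from no more than 64 UMIs. Irf8, a factor of dendritic cell development, was at 2.20 times sham at TAC-4w and at 0.414 times at TAC-6w.

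In B cell-like cells the class II sum was 1.05 times sham at TAC-2w (1.02 to 1.071), 1.22 times at TAC-4w (1.197 to 1.237) and 1.18 times at TAC-6w (1.162 to 1.207). Among cells with a mitochondrial share under 5% these values were 0.944, 1.05 and 1.01 times. At TAC-4w Cd74 was 1.35 times sham (1.313 to 1.377) while H2-Eb1 was at 1.01 times and Ciita at 1.00 times, and H2-DMb1 (1.54 times, 1.144 to 2.112, from 46 UMIs in sham) was the 1 of 7 members called higher, where 19% of genes were called higher and 6.64% lower. At TAC-6w Cd74 was at 1.25 times and Ciita at 0.710 times (0.547 to 0.925), and none of the members was called, with 4.68% of genes called higher, 21.1% lower and a median of 0.849. At TAC-2w none of 6 tested members was called, beside 3.59% of genes higher and 3.04% lower. The B cell-like cells of the libraries fell into different sub-clusters, since sub-cluster 0 held 1700 of 1737 cells from TAC-4w, sub-cluster 1 held 789 of 806 from TAC-6w and sub-cluster 2 mainly sham and TAC-2w cells. Their sums were 25273, 24019 and 21254 CPM. A sub-cluster led by Vpreb1 and Rag1, genes of B cell precursors, was lower at 16237 CPM, with H2-Aa at 2008 CPM (239 cells), and one led by the antibody genes Jchain and Igha was at 17994 CPM (78 cells).

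**Figure D3:**
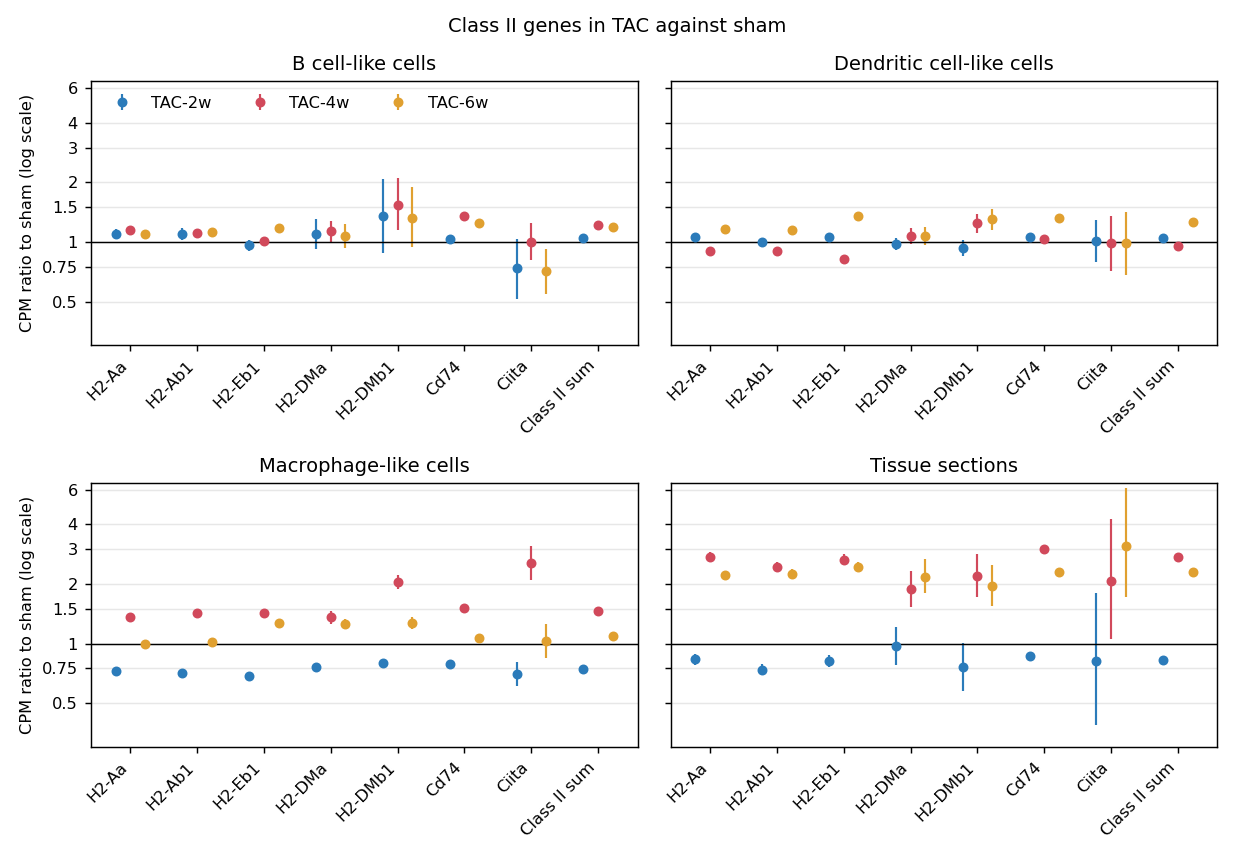
Ratio of each member to sham (log axis) in B cell-like, dendritic cell-like and macrophage-like cells and in the sections, for each time after TAC, with bars for the 95% interval of counting error. In macrophage-like cells all 7 lie below 1 at TAC-2w, and in the sections all lie above 1 at TAC-4w and TAC-6w.

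The 39 other genes of the pathway were followed in the same comparisons. They include 8 class I genes, listed for contrast. In macrophage-like cells 35 were tested, of which 0 were called at TAC-2w, 2 higher and 5 lower at TAC-4w, and 1 higher and 6 lower at TAC-6w. Class I genes were 2 and 3 of those called lower at TAC-4w and TAC-6w. Set against the shares of all genes given above (12.5% higher and 12.6% lower at TAC-4w, 4.81% and 17% at TAC-6w), these counts lie near or below the background. The called genes included H2-Ob and the protease Ctsd (higher) with Irf1, Ctsl, Cd40, H2-K1 and Psmb9 (lower) at TAC-4w, and the costimulatory ligand Cd80 (1.74 times, higher) with Rfx5, Rfxap, H2-K1, Tap1 and Nlrc5 (lower) at TAC-6w. Rfx5 and Rfxap belong to the complex that binds the X box, and they stood at 0.582 times (12 against 71 UMIs) and 0.646 times sham. In B cell-like cells 1 was higher and 2 lower of 19 at TAC-2w, 4 and 2 of 36 at TAC-4w, and 0 and 7 of 26 at TAC-6w, where 3.59% and 3.04%, 19% and 6.64%, and 4.68% and 21.1% of all genes were. March1, a ligase that marks surface class II for turnover, was among the 7, at 0.580 times sham, and was also lower in dendritic cell-like cells of TAC-6w at 0.615 times. In dendritic cell-like cells 1 was higher and 2 lower of 27 at TAC-2w, 4 and 5 of 27 at TAC-4w, and 2 and 7 of 27 at TAC-6w, where 4.32% and 3.86%, 11.2% and 13.2%, and 5.09% and 24.5% of all genes were.

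The cell types that carried the class II transcripts differed between libraries. Macrophage-like cells carried 73.5% of the class II UMIs of sham and 73.8% of TAC-2w, 16.7% of TAC-4w and 61.0% of TAC-6w. B cell-like cells carried 2.88%, 2.60%, 69.5% and 20.9%, and dendritic cell-like cells 11.7%, 15.9%, 7.20% and 13.4%. At TAC-4w B cell-like cells were 37.2% of all cells and macrophage-like cells 2.82%, against 2.91% and 20.2% in sham. Dendritic cell-like cells made up 1.37% of sham cells. For Ciita the shift was greater, with 12.3%, 8.24%, 81.7% and 43.6% of them in B cell-like cells. Over all cells of a library the class II sum was 6946, 6754, 9819 and 7180 CPM. With each cell type at its own level but in the proportions of sham, it would have been 5404, 8956 and 7512 CPM. With the library's own proportions and the levels of sham, it would have been 8675, 8616 and 6452 CPM. Cell shares in a dissociated library depend on the dissociation and on the cells loaded, and each is of 1 library.

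**Figure D4:**
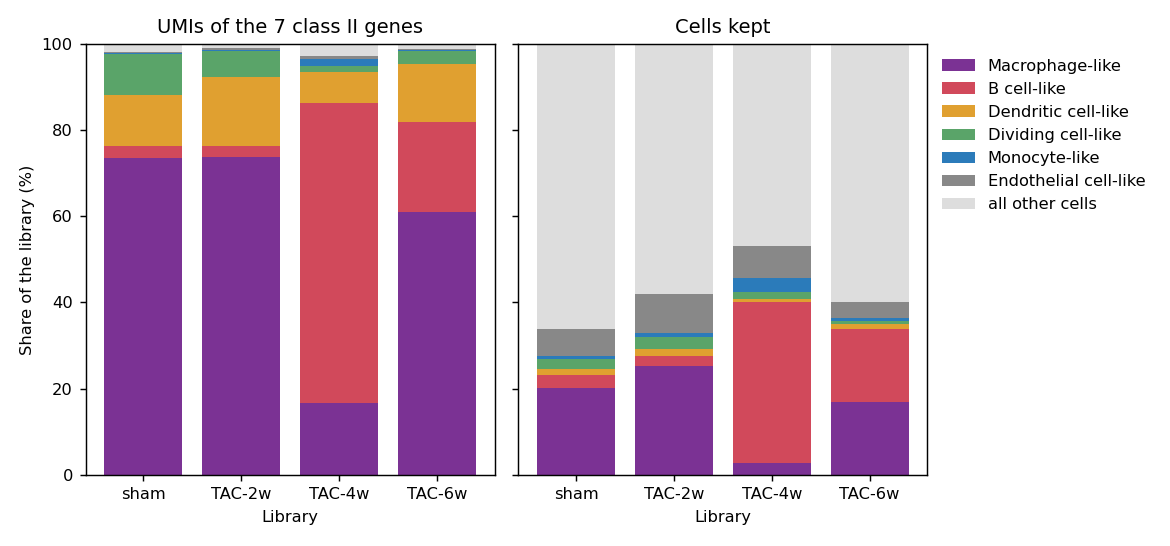
Stacked shares (%) of the class II UMIs and of the cells by cell type in each library. B cell-like cells hold 2.88% of the class II UMIs of sham and 69.5% of those of TAC-4w.

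Endothelial cells of some tissues present antigen, and their class II was examined against the background of free RNA. The share of endothelial cell-like cells with any class II UMI was 64.6%, 55.0%, 60.9% and 33.5% in the same order, and that of fibroblast-like cells, which should hold little, was 57.4%, 56.5%, 61.1% and 25.9%. Median depths were 5113, 2989, 7050 and 3653 UMIs in the first type and 10539, 12484, 13838 and 6188 UMIs in the second. At 1000 UMIs per cell the shares were 27.9%, 19.8%, 20.0% and 16.1% (407, 455, 465 and 187 cells) against 9.09%, 7.40%, 10.2% and 5.91%, so that the share was higher in endothelial cell-like cells at equal depth. Thinning keeps free RNA in proportion, so it cannot tell such RNA from that of the cell. Many of these cells also held a UMI of a macrophage or B cell marker. Without such cells the level was 419, 170, 300 and 319 CPM (231, 207, 234 and 157 cells), and in fibroblast-like cells 86.5, 69.9, 68.9 and 44.2 CPM. Chosen in the same way, neutrophil-like cells had 338, 341, 204 and 244 CPM (22, 8, 163 and 68 cells). T cell-like cells had 187, 121, 153.5 and 166 CPM. Pooled over libraries, the sub-clusters differed, from 109 CPM in one led by the capillary genes Car4 and Apln to 512 CPM in one led by the arterial genes Gja5 and Sema3g, 364 CPM in one led by Npr3 and 317 CPM in one led by the venular genes Selp and Ackr1. By library the arterial one was at 722, 310, 471 and 710 CPM. A sub-cluster led by haemoglobin and C1q genes, markers of other cells, was at 510, 1814, 394 and 88.3 CPM (222 cells in all), high in TAC-2w alone, and one led by Cd79a and Igkc, markers of B cells, at 5888 CPM (19 cells in all, 13 of them from TAC-4w). The class II sum of endothelial cell-like cells was 0.702, 1.22 and 1.04 times sham, and 0.406, 0.716 and 0.762 times without cells holding a macrophage or B cell UMI. H2-Aa (0.543 times sham) and H2-DMa (0.579 times) were called lower at TAC-2w, 2 of 5 tested members (3.43% of genes lower, 4.02% higher), and Cd74 (1.66 times) was called higher at TAC-4w, 1 of 6 (19.1% higher, 12.7% lower). At TAC-6w no member was called (11.6% higher, 22.8% lower). Igkc, an antibody light chain, was at 11.9 CPM in sham and 116 CPM at TAC-4w in these cells, and without cells holding a macrophage or B cell UMI Cd74 was at 0.999 times sham. Without those cells H2-DMa at TAC-2w was at 1.05 times sham, so that its call was lost and its direction turned, and H2-Aa was at 0.210 times. Of the 39 other genes, 1 was higher and 0 lower of 25 tested at TAC-2w, 3 and 6 of 24 at TAC-4w and 0 and 9 of 24 at TAC-6w, beside the shares of all genes just given.

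In the sections, class II was lower at TAC-2w and higher at TAC-4w and TAC-6w than in sham. The class II sum was 314 CPM in sham, 259 CPM in TAC-2w, 862 CPM in TAC-4w and 720 CPM in TAC-6w, from 8153, 12649, 27546 and 34772 UMIs. The ratios to sham were 0.827 (0.805 to 0.851), 2.75 (2.682 to 2.819) and 2.30 (2.241 to 2.352). In a section, fewer cells of a type and less RNA per cell cannot be told apart. Cd74 was at 125, 109, 376 and 289 CPM, H2-Aa at 63.7, 53.2, 175 and 141 CPM, H2-Ab1 at 64.9, 47.9, 158 and 146 CPM and H2-Eb1 at 51.1, 41.9, 135 and 124 CPM. H2-DMa was at 4.92, 4.80, 9.27 and 10.8 CPM, H2-DMb1 at 3.42, 2.60, 7.51 and 6.69 CPM, and Ciita at 0.5001, 0.410, 1.03 and 1.55 CPM, from 13, 20, 33 and 75 UMIs. Each member was thus lowest at TAC-2w, where the intervals of H2-DMa, H2-DMb1 and Ciita overlapped those of sham, and each was above sham at both later times.

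At TAC-2w, within 1 batch, none of 6 tested members was called, with 4.95% of genes called higher and 3.27% lower. At TAC-4w all 6 tested members were called higher, where 15.2% of 11205 genes were and 2.5% were lower, and their median ratio was 2.55 beside 1.16 for all genes. At TAC-6w all 7 were called higher, where 17.6% of 11952 genes were and 0.962% were lower, and the median was 2.25 beside 1.23. Cd74 was at 3.00 times sham at TAC-4w and 2.31 times at TAC-6w, H2-DMa at 1.88 and 2.18 times, and Ciita at 3.11 times at TAC-6w (1.711 to 6.102). Class I genes were further above sham than class II genes at TAC-4w, where 8 of 8 were called higher, with H2-K1 at 7.33, H2-D1 at 4.45, B2m at 5.09 and Nlrc5 at 4.70 times sham, and a median of 4.82. At TAC-6w 8 of 8 were called higher again, with a median of 2.32. Of the 39 other pathway genes, 0 were higher and 2 lower of 31 tested at TAC-2w, and 17 of 33 and 15 of 34 were higher at TAC-4w and TAC-6w. These counts include the 8 class I genes already counted as higher at both later times. Of the regulators 3 and 2 of 13 were higher at TAC-4w and TAC-6w, and of the proteases and thiol reductase 2 of 6 at each. These regulators included Irf1 (2.217 times sham) and Spi1 (1.955 times) at TAC-4w and Irf8 (1.541 times) at TAC-6w. In macrophage-like cells of TAC-4w Irf1 was called lower. Among the genes called higher at both later times were Ctss (2.43 and 1.65 times) and the Cd74 partner Cd44 (2.24 and 2.07 times), while Rfx5 was at 1.10 and 1.35 times. The summed macrophage marker list was at 243, 220, 476 and 352 CPM, the T cell list at 2.77, 1.78, 9.20 and 13.1 CPM, the dendritic cell list at 26.4, 18.7, 41.4 and 20.6 CPM and the B cell list at 11.9, 9.64, 15.2 and 17.02 CPM; their part in the class II levels was not tested. The dendritic cell list includes Ifi205 and Zbtb46, which were higher in fibroblast-like and in endothelial cell-like cells, respectively, than in dendritic cell-like cells. Class II UMIs per macrophage marker UMI were 1.29, 1.18, 1.81 and 2.04.

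Relative to the level of their section, spots differed more from one another in sham and TAC-2w than in TAC-4w and TAC-6w. In CPM the quartiles lay further apart in TAC-4w and TAC-6w. Class II UMIs were found in 80.6%, 92.6%, 98.7% and 98.0% of spots, and the median spot held 175, 173, 714 and 586 CPM. The quartiles over spots were 59.8 and 347 CPM in sham, 87.1 and 307 CPM in TAC-2w, 471 and 1068 CPM in TAC-4w and 364 and 930 CPM in TAC-6w. The lower quartile of TAC-4w and TAC-6w was therefore above the upper quartile of sham. The coefficient of variation beyond counting was 2.33 in sham, 1.12 in TAC-2w, 0.634 in TAC-4w and 0.766 in TAC-6w. Single high spots weigh heavily in this measure, and 1 sham spot held 486 of the 8153 class II UMIs of its section. The value without that spot was not computed. Among spots of 20000 to 30000 UMIs the level was 310, 252, 877 and 696 CPM, close to the values over all spots. At other depths the distance from sham differed. Spots under 5000 UMIs held 167, 257, 613 and 715 CPM (270, 15, 34 and 299 spots). The 257 CPM of TAC-2w came from 12 UMIs. Spots of 30000 UMIs or more held 502, 308, 867 and 725 CPM (94, 289, 508 and 723 spots). The level thus rose with depth in sham and was nearly flat in TAC-6w. Moran's I, which is near 0 for spots without spatial order, was 0.247, 0.145, 0.204 and 0.256.

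By the share held in the top 10% of spots, the transcripts were most gathered in sham. This share was not corrected for counting error, and sham had 8153 class II UMIs over 1676 spots where TAC-4w had 27546 over 1228. The 10% of spots with the highest CPM held 46.0% of the class II UMIs of sham, 37.8% of TAC-2w, 26.7% of TAC-4w and 28.5% of TAC-6w. In sham 7 spots reached 2000 CPM and held 10.1% of its class II UMIs, 826 in all, of which the highest, at 13172 CPM, held 486. In TAC-2w 7, in TAC-4w 54 and in TAC-6w 71 spots did, with 3.84%, 14.3% and 13.4% of the class II UMIs. The highest spots of the TAC sections were at 3000, 4430 and 5400 CPM. Spots of the top 10% were richer in macrophage markers, at 462 against 213 CPM in the rest for sham, 373 against 201 CPM for TAC-2w, 906 against 423 CPM for TAC-4w and 576 against 326 CPM for TAC-6w. The T cell list was higher in the top 10% too, at 10.5 against 1.71, 2.82 against 1.66, 14.3 against 8.58 and 22.1 against 12.1 CPM. Over all spots it had a mean of only 0.0430, 0.0422, 0.239 and 0.289 UMIs per spot. The neutrophil and cardiomyocyte lists were lower in the top 10% in each section. No counting interval was computed for these lists in the top spots. Across spots of 1 section, which share depth and neighbours, the class II sum had a correlation of 0.273, 0.314, 0.532 and 0.29 with the macrophage list and of 0.0794 or less with the B cell list. A spot held on average 3.77, 5.19, 12.4 and 7.76 UMIs of the macrophage list. For the B cell list it held 0.184, 0.228, 0.396 and 0.375. With so few B cell UMIs the correlation cannot tell whether class II goes with B cells. In the TAC sections the class II sum was higher at the tissue edge than in the interior. It was at 337 against 252 CPM in TAC-2w, 1056 against 839 CPM in TAC-4w and 983 against 692 CPM in TAC-6w. In sham it was at 327 (308.5 to 346.4) against 312 CPM (304.2 to 318.9), with overlapping intervals. There were 150, 170, 126 and 168 edge spots. Their median depth was 22203, 26291.5, 26288 and 27653.5 UMIs, against 14865, 24452, 27656.5 and 19709 UMIs in the interior. Spots with no macrophage marker UMI held 165, 137, 612 and 563 CPM, from 367, 133, 25 and 162 spots. The 612 CPM of TAC-4w came from 84 UMIs (488 to 757 CPM). The values were higher in the later sections, but such spots can still hold macrophages, so they give no level outside macrophages. The median depth of these spots was 5557, 20907, 5273 and 5093 UMIs.

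**Figure D5:**
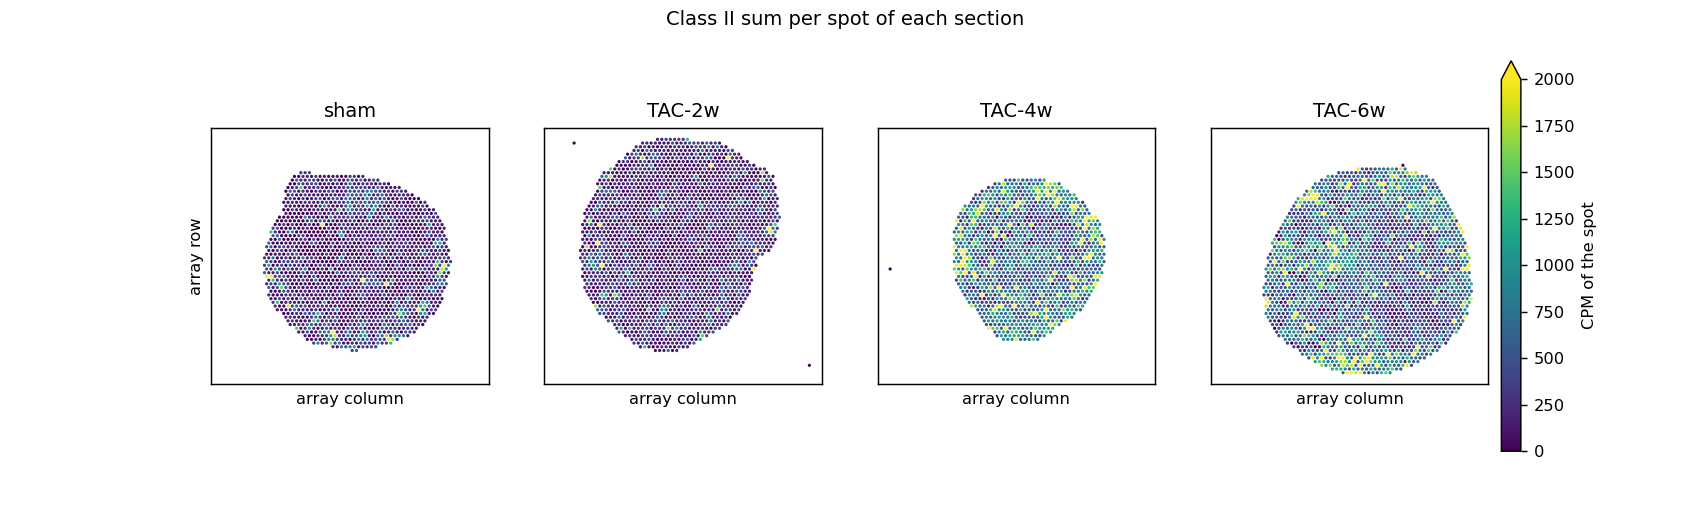
Class II sum (CPM, color clipped at 2000 CPM) of each spot over the tissue in the 4 sections, drawn at array positions, with 2 stray spots of TAC-2w and 1 of TAC-4w that held no class II UMI. Most spots of TAC-4w and TAC-6w are brighter than those of sham and TAC-2w, with medians of 714 and 586 against 175 and 173 CPM.

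Genes with a pattern like the class II sum were ranked over 50 groups of a cell type in a library and 12094 genes by Spearman's rho, as a description of groups that share libraries. Outside the members and pathway genes the closest were Ly86, a partner of the receptor CD180 (0.902), Fgd2 (0.851), Rnase6 (0.813), Unc93b1, a carrier of Toll-like receptors (0.804), and Btk (0.799), and of the pathway list Ctss (0.819) and March1 (0.790). The members themselves lay between 0.884 for Ciita and 0.994 for Cd74. Ly86 was at 351, 360 and 440 CPM in B cell-like, dendritic cell-like and macrophage-like cells, and at 3.11 CPM in endothelial cell-like cells.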

How the data were processed

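The authors deposited raw UMI counts per gene, as 10x matrices, for each single-cell library and each section. Matrix headers named Cell Ranger 6.0.0 and Space Ranger 1.2.0, whereas the submitters' processing notes listed Cell Ranger 7.0.0 and Space Ranger 1.3.1; the build was mm10. The labels described a preparation of nuclei and the methods of the study one of cells. After filtering (200 to 6000 genes, 500 to 30000 UMIs, at most 15% mitochondrial UMIs), the 3.2% of cells with the highest Scrublet doublet score (scanpy 1.11.5) were removed, 7% doublets being expected. Cells were clustered in Seurat 5.3.0 (R 4.3.3) on 3000 variable genes, from which 11 class II genes had been left out, with 30 components and resolution 0.25, and presenting and endothelial types were clustered again (2000 genes, 20 components, resolution 0.4). The 18 clusters were named as 14 types from marker lists, or left unnamed. Spots flagged over tissue were all kept. Counts were summed per cell type or section, divided by all UMIs (CPM), and compared with sham using scipy 1.17.1 and pandas 2.3.3 in Python 3.11.15; the ratio and interval calculation was tested on simulated counts. With 1 sample per group no test across samples was made. Thinning drew 1000 UMIs per cell, and cells below that depth were left out. The floor for a count of 0 was 3 counts. Single genes are named when they are members, when they belong to the pathway list and are called, or when they are among the 10 closest in pattern; Nlrc5, H2-K1, B2m, H2-D1 and Rfx5 are also given where uncalled, chosen after their values were seen. The members and the gene and marker lists were chosen with earlier results of these data known. One gene of the pathway list is not reported here by name.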

Additional observations from a re-analysis of the deposited data

How the results depend on the processing

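Every ratio of the class II sum to sham was computed again under other settings, giving 111 values, of which 54 moved by less than the counting interval, 57 moved further and 10 lay on the other side of 1. Integration by RPCA gave 1.246 for B cell-like cells at TAC-4w, 0.8198 for dendritic cell-like cells at TAC-4w, and 0.7408 and 1.427 for macrophage-like cells at TAC-2w and TAC-4w. With doublets kept, dendritic cell-like cells at TAC-4w were at 0.9166, macrophage-like cells at 0.7649, 1.782 and 1.122 and endothelial cell-like cells at 0.5837, 0.6973 and 0.4741 (3 values being those of 2, 4 and 6 weeks). Naming each cell by its own score gave 1.24 for B cell-like cells at TAC-4w, 1.709, 3.433 and 1.385 for dendritic cell-like cells, 1.675 for macrophage-like cells at TAC-4w and 0.9597 for endothelial cell-like cells at TAC-2w. Most cells so named dendritic came from the fibroblast-like clusters (227, with 128 from the dendritic cell-like cluster). A mean over cells gave 1.096 and 0.8849 for dendritic cell-like cells at TAC-2w and TAC-4w, 0.7746, 1.374 and 1.053 for macrophage-like cells, and 0.8356 and 0.6145 for endothelial cell-like cells at TAC-4w and TAC-6w, and a mean over spots gave 0.9108, 3.075 and 2.619 for sections. With mitochondrial and rRNA-like features left out of the total, sections were at 0.7078, 2.301 and 1.992, B cell-like cells at 1.127 at TAC-6w, dendritic cell-like cells at 0.9292 and 1.218 at TAC-4w and TAC-6w, and macrophage-like cells at 0.7405, 1.431 and 1.05. Cells with a mitochondrial share under 5% gave 0.9437, 1.054 and 1.012 for B cell-like cells, 1.023 and 1.233 for dendritic cell-like cells at TAC-2w and TAC-6w, 0.7171, 1.362 and 1.006 for macrophage-like cells and 0.5912, 1.735 and 1.193 for endothelial cell-like cells. Counting monocyte-like cells in gave 0.6831 and 1.079 for macrophage-like cells at TAC-4w and TAC-6w, and spots of 20000 to 30000 UMIs gave 2.824 for the TAC-4w section. The next 4 settings were chosen after seeing the data. Macrophage sub-clusters weighted as in sham gave 0.824, 1.141 and 0.8691, the value of TAC-4w coming from sub-clusters 2 and 4 alone. Endothelial cell-like cells without a macrophage or B cell UMI gave 0.4059, 0.7159 and 0.7622. B cell-like cells without sub-clusters 3 and 7 gave 1.158 at TAC-6w, while leaving out the shallow dendritic sub-cluster moved no sum beyond its interval. Of 721 values for single genes, 4 were called ratios that crossed to the other side of 1: Cd74 in macrophage-like cells at TAC-4w with monocyte-like cells counted in (0.7233), Cd74 in endothelial cell-like cells at TAC-4w with doublets kept (0.9125) and without a macrophage or B cell UMI (0.9988), and H2-DMa in endothelial cell-like cells at TAC-2w under the latter (1.053). The cause was not tested. With 1 sample per group no replicate could be left out, and the precision of Ciita, at 13 to 75 UMIs per section, is limited by depth. No paired analysis was possible because each group had 1 sample of each kind and no result came from a test.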

Other observations

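Class II was also counted in types outside the presenting ones. Monocyte-like cells had a class II sum of 4808, 4782, 3386 and 3484 CPM in sham and the successive TAC libraries, from 50, 69, 220 and 34 cells, with 3, 1, 25 and 2 Ciita UMIs. Dividing cells, named from cell cycle genes and holding several cell types, were at 18634, 12171, 3963 and 16087 CPM. They gave 9.48%, 5.99%, 1.35% and 3.04% of all class II UMIs of their library. Neutrophil-like cells were at 286, 1209, 463 and 518 CPM and NK cell-like cells at 253, 158, 337 and 85.6 CPM.

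Pooled over libraries, the dendritic cell-like sub-cluster led by Xcr1 and Clec9a, genes of cross-presenting dendritic cells, had 42163 CPM (57 cells), below the 51380 CPM of the one led by Ly6d, Cd7 and Siglech (118 cells) and the 49238 CPM of the one led by Retnla, Lyz1 and Mmp12 (120 cells). The order differed between libraries. The last of these stood at 46291, 48482, 50930 and 63374 CPM, the one led by Ly6d at 52713, 54608, 41955 and 58215 CPM and the one led by Xcr1 at 40274, 42794, 45830 and 36397 CPM, from 21, 26, 7 and 3 cells. The sub-cluster led by Retnla also had Fcrls, C1qa, C1qb and F13a1 among its leading genes. Within it, the marker list that stood furthest above the other dendritic cell-like cells was that of macrophages.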
